A study of Mus musculus with 16 samples.

Results

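Open chromatin was compared between mouse embryonic stem cells (ESCs) that lack both WDR5 and p53 and ESCs that lack p53 alone. The comparison rests on 6 of the 16 peak lists of an ATAC-seq study, a method in which a transposase inserts sequencing adapters into accessible DNA. The 2 DKO EV lists come from Wdr5 and p53 double knockout (DKO) cells that stably carry a backbone plasmid. The 4 p53KO lists come from p53 knockout cells, 2 from clone C9 and 2 from clone H9, with Wdr5 intact by label. All 6 libraries were made from Rx:GFP knock-in ESCs kept in 2i+LIF, a medium that holds ESCs in the naive state, so both groups lack p53 and carry the same reporter. The 2 genotypes are not 1 isogenic pair: the labels give no clone for the DKO EV cells, which also carry a plasmid. The other 6 ESC lists were used for orientation: DKO cells given back wild-type WDR5 (WDR5WT), DKO cells given WDR5 with the S91K-Y191F changes, and the parental line with both genes intact, 2 lists each.

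WDR5 is a scaffold that joins the core of the COMPASS and MLL complexes, enzymes that methylate histone tails at the start sites of active genes. It also sits in the NSL acetyltransferase complex and binds MYC, and in ESCs it is known for its part in self-renewal. p53 is a stress-induced transcription factor that switches on arrest and apoptosis genes, and it is commonly removed so that cells can live without an essential gene. The comparison therefore asks what loss of WDR5 does to open chromatin on a p53-null background.

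Members were found by merging the peaks on chromosomes 1 to 19, X and Y that overlapped by at least 1 bp, which gave 42768 regions over the 6 lists. A region was called DKO EV-only when it was in both DKO EV lists and in no p53KO list. It was called p53KO-only when it was in all 4 p53KO lists and in no DKO EV list. These are different demands, 2 lists of 2 and 4 lists of 4, so the counts of the 2 directions do not compare directly.

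The targeted genes were looked at first. No peak lay within 1000 bp of the Wdr5 start in the DKO EV lists, and none in the p53KO lists. Among the other ESC lists only replicate 2 of the WDR5WT cells had one. A Trp53 start peak was absent from both DKO EV lists and from both clone C9 lists, and was present in the 2 clone H9 lists, at percentiles 38.5 and 22.8 of the signal within those lists. A start peak is no check of a knockout, since the deleted part of either gene is not given in the sources used here. Of 7 ESC marker genes, Zfp42 alone had a start peak in the DKO EV lists, and 4 had one in all 4 p53KO lists. None of 8 fibroblast, 4 trophectoderm and 4 endoderm markers had a start peak in a DKO EV list. In all 4 p53KO lists 2, 1 and 2 of them had one. Of all 21883 protein-coding genes, 1.24% and 5.04% had a start peak in the DKO EV lists, and 8869 genes had one in all 4 p53KO lists. An absence of DKO EV start peaks among so few markers is thus close to the background. The marker counts were not tested and do not show cell identity.

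The DKO EV lists were far shorter. They held 1535 and 2492 peaks, against 26305 and 31782 peaks in clone C9 and 30780 and 31130 peaks in clone H9. The groups did not overlap. On the log10 scale the DKO EV lists averaged 3.29 ± 0.149 (SD, n = 2) and the p53KO lists 4.48 ± 0.0377 (SD, n = 4), a difference of -1.18. A two-sided exact permutation test over the 6 lists gave p = 0.0667, the smallest p that 2 lists against 4 allow, so no difference in this design can pass 0.05. Whether replicates were grown as separate cultures is not stated in the labels, and the p-values here measure no more than the spread between these libraries. The lists hold no reads, and the depth is unknown. Fewer open cells, less signal per cell and fewer reads cannot be told apart in such lists.

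Many DKO EV peaks lay in clusters. A dense window was taken to be a 100 kb stretch that held at least 5 of the 1535 strongest peaks of any of the 6 lists, and 65 windows met this, 15 each on chromosomes 8 and 14, 7 on chromosome 4 and 5 on chromosome 5. All of them were reached through a DKO EV list, so a high DKO EV share there follows in part from the definition. The shares also rest on lists of very different length. Peaks in these windows made up 54.7% and 32.5% of the DKO EV lists, against 0.520% to 0.635% of the p53KO lists. In number these were 840 and 810 peaks in DKO EV, against 162 to 176 in p53KO. The S91K-Y191F lists had 858 and 821 such peaks and the parental lists 726 and 851, so high numbers there were not limited to DKO EV. In WDR5WT lists 0.571% and 0.584% of peaks lay there. Genes there include runs of predicted genes such as Gm15319 and Gm21119, which can share reads with near copies, so peaks there are uncertain. Dense windows were defined after the data were seen, and results are given with and without them. Without them the lists held 695 and 1682 peaks in DKO EV cells, against 26138 to 31606 peaks in p53KO cells.

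The share of peaks at gene starts depended on which peaks were counted. Over whole lists 16.9% and 38.3% of DKO EV peaks lay within 1000 bp of the start of a protein-coding gene, against 31.1% to 36.5% of p53KO peaks, and the groups overlapped (means 27.6% and 34.4%, exact permutation p = 0.4). Outside the dense windows the shares were 29.6% and 52.9% in DKO EV and 31.2% to 36.6% in p53KO (exact permutation p = 0.4). Lists of the same length did not overlap between the groups. The length used, 695 peaks, was that of DKO EV 1 outside the dense windows, so all of its peaks there entered. The p53KO lists gave only their strongest peaks, and in those lists the share at starts rose with signal. It was 14.7% to 19.9% in the lowest of 10 bins by signal and 67.7% to 76.1% in the strongest. Among the 695 strongest peaks of each list outside the dense windows, 29.6% and 48.6% lay at starts in DKO EV, against 80.4% and 80.7% in clone C9 and 85.9% and 86.6% in clone H9. In this measure every DKO EV list was below every p53KO list (exact permutation p = 0.0667, the smallest possible).

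**Figure D1:**
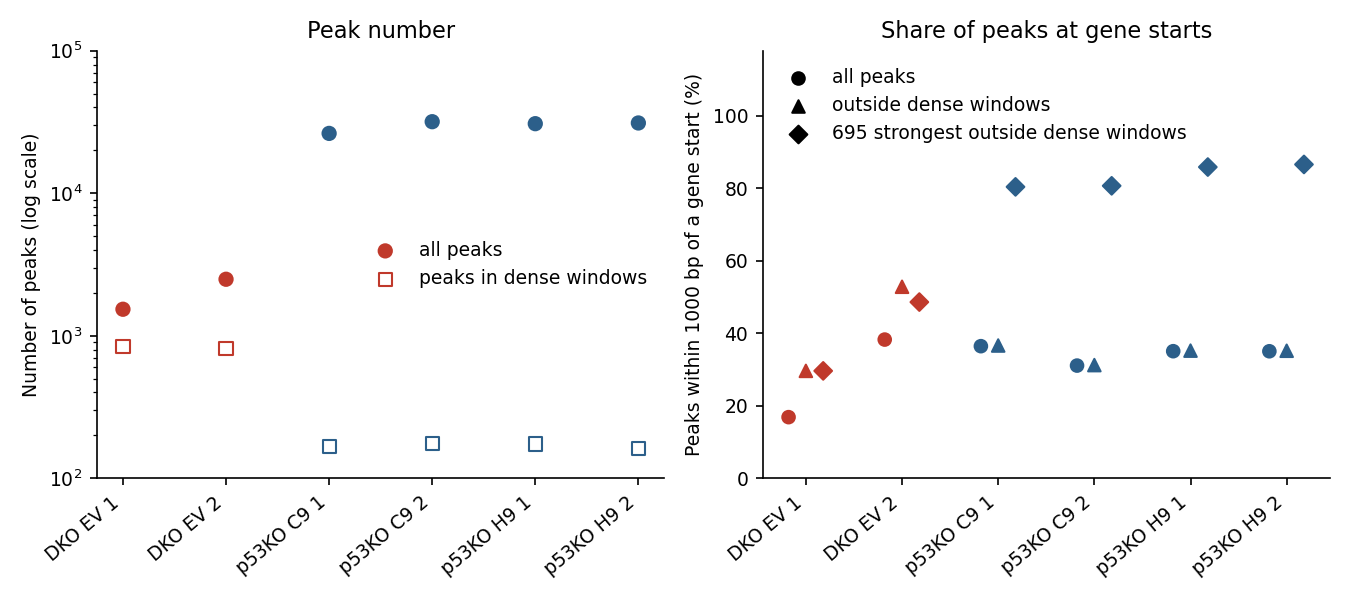
Peak number on a log scale (left) and the percentage of peaks within 1000 bp of a protein-coding gene start (right) in each list, DKO EV in red and p53KO in blue. Filled circles on the left are all peaks and open squares those in dense windows; on the right, diamonds for the 695 strongest peaks outside dense windows are at 29.6% and 48.6% in DKO EV, against 80.4% to 86.6% in p53KO.

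The same measure in the other ESC lists placed the DKO EV lists at the low end of a range and not apart from all others. The 695 strongest peaks outside the dense windows lay at starts in 86.2% and 90.1% of cases in WDR5WT cells, in 62.2% and 69.2% in S91K-Y191F cells, and in 54.5% and 51.7% in parental cells, which have both WDR5 and p53. Parental and S91K-Y191F lists thus also fell below every p53KO list.

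Peak widths differed once the dense windows were left out. Median widths were 654 and 602 bp in DKO EV and 621 to 651.5 bp in p53KO (means 628 and 634 bp, exact permutation p = 0.867). Outside the dense windows they were 519 and 537.5 bp in DKO EV, against 621 to 651 bp in p53KO, with no overlap (means 528 and 634 bp, exact permutation p = 0.0667). The widest peaks spanned 22731 and 19984 bp in DKO EV, against 7727 to 15921 bp in p53KO. The S91K-Y191F and parental lists, with medians of 559 to 592 bp outside the windows and widest peaks of 18810 to 29214 bp, differed from p53KO in the same directions.

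Of the 42768 merged regions, 810 were DKO EV-only, which is 1.89% of them, and 18301 were p53KO-only, which is 42.8%. All 6 lists shared 348 regions. The classes were unlike in position, which follows in part from how they were set. All dense windows were reached through a DKO EV list. Outside them most DKO EV start peaks were also in all 4 p53KO lists, which leaves few start regions to the DKO EV-only class. Of the DKO EV-only regions 531 lay in dense windows. Of the 279 others, 12 (4.30%) were at a gene start, against 28.6% of all merged regions outside the windows. Another 87 (31.2%) were farther than 100 kb from any start, against 27.8% of all. Among the p53KO-only regions 20 lay in dense windows, and 40.4% of the other 18281 were at gene starts. Of the 278 shared regions outside dense windows, 62.2% were at starts. The median width of merged regions outside the windows was 504 bp for DKO EV-only, 917 bp for p53KO-only and 1514.5 bp for shared regions, beside 691 bp for all. A merged region spans all of its peaks, so its width can grow with the number of lists that a class demands. These widths therefore do not compare directly between classes.

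Because list lengths differed so widely, each list was also reduced to its 1535 strongest peaks, which in DKO EV 1 are all of them. Of 3523 merged regions 838 were then DKO EV-only (23.8%), 674 were p53KO-only (19.1%) and 142 were in all 6 lists. Of the DKO EV-only regions 324 lay outside dense windows, and 10.8% of those were at starts. All 674 p53KO-only regions lay outside dense windows, and 82.5% were at starts, beside 63.3% of all merged regions outside dense windows at this length. With the dense windows removed first and 695 peaks per list, 1632 merged regions remained, of which 313 (19.2%) were DKO EV-only, 280 (17.2%) were p53KO-only and 92 were shared. At this length 17.9% of the DKO EV-only, 86.8% of the p53KO-only and 80.4% of the shared regions were at starts, beside 58.9% of all 1632. Median widths were 655 bp for DKO EV-only, 1973.5 bp for p53KO-only and 1751 bp for shared regions, beside 1417 bp for all. The same limit on widths of merged regions applies.

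Which p53KO peaks were also found in the DKO EV lists depended on their strength. Each p53KO list was split into 10 bins of like size by the deposited signal, outside dense windows, and the share of peaks overlapped by a DKO EV peak was averaged over the 4 lists. In the lowest bin this share was 0.120% for DKO EV 1 and 0.230% for DKO EV 2. It was 1.17% and 6.56% in bin 9, and 7.20% and 28.9% in the strongest. Of the peaks in the strongest bin, 60.96% were found in S91K-Y191F replicate 1, a list of 5174 peaks, and 60.04% in parental replicate 2, of 5330 peaks. Of the 100 strongest p53KO peaks, 27% to 34% were in DKO EV 1 and 66% to 75% in DKO EV 2, against 85% to 94% in S91K-Y191F 1 and 87% to 96% in parental 2. The p53KO peaks absent from DKO EV therefore include strong ones.

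**Figure D2:**
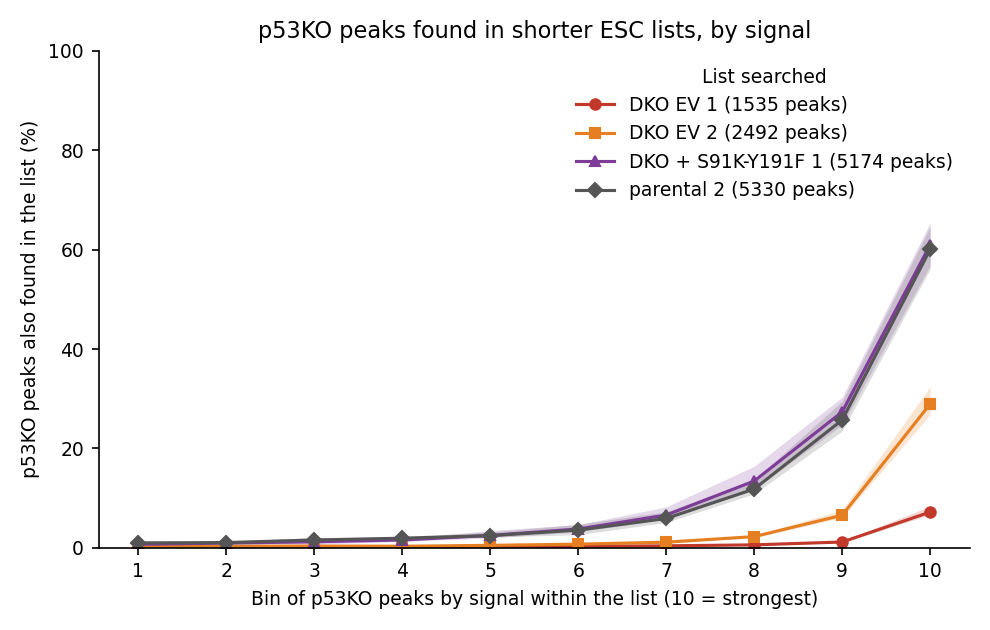
Percentage of p53KO peaks, by bin of signal within their list (bin 10 is the strongest), that overlap a peak in each of the 4 shortest ESC lists; lines are means over the 4 p53KO lists and bands their range. All 4 lines rise toward the strongest bin, to 7.20% and 28.9% in the DKO EV lists and to 60.96% and 60.04% in the lists of 5174 and 5330 peaks.

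Read in the other direction, most DKO EV peaks at gene starts were p53KO peaks too. Outside dense windows, 88.3% of the start peaks of DKO EV 1 and 95.5% of those of DKO EV 2 were in all 4 p53KO lists. For peaks away from starts the shares were 23.9% and 44.9%. The 2 DKO EV lists were nested: 84.6% of the peaks of DKO EV 1 outside dense windows were in DKO EV 2, and 35.1% of the peaks of DKO EV 2 were in DKO EV 1.

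The classes were then looked up in ESC lists that had no part in defining them. Of the 279 DKO EV-only regions outside dense windows, 268 (96.1%) were in at least 1 S91K-Y191F or parental list. Of the 279, 213 (76.3%) were in both S91K-Y191F lists and 196 (70.3%) in both parental lists. In WDR5WT cells 2 of them were in both lists and 273 in neither. The lists searched differ widely in length. They also differ in the highest deposited −log10 p, which was 33.3 to 36.4 in the DKO EV, S91K-Y191F and parental lists. It was 15.5 to 16.1 in the p53KO and WDR5WT lists. The DKO EV and p53KO lists thus differ in this trait as well as in genotype, and its part in these shares was not tested. The p53KO-only regions were in both WDR5WT lists in 88.5% of cases. They were in parental replicate 1 in 69.3% and in parental replicate 2, a list of 5330 peaks, in 12.2%. In S91K-Y191F cells 12.7% were in replicate 1 and 53.8% in replicate 2. The shared regions were in nearly every ESC list, with 98.9% in both WDR5WT, 98.2% in both S91K-Y191F and 96.8% in both parental lists.

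**Figure D3:**
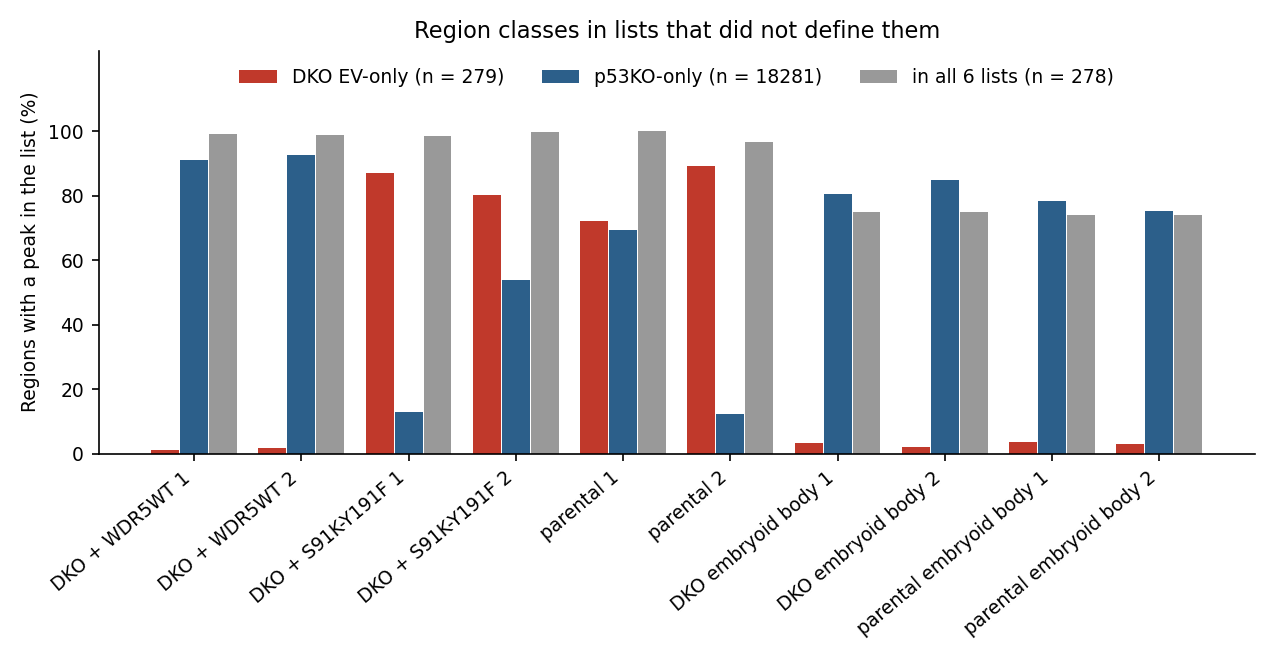
Percentage of DKO EV-only (red), p53KO-only (blue) and shared (grey) regions outside dense windows with a peak in each list that did not define the classes. DKO EV-only regions are common in S91K-Y191F and parental lists, where 76.3% and 70.3% are in both. They are nearly absent from WDR5WT and embryoid body lists, whereas p53KO-only regions are in both WDR5WT lists in 88.5% of cases. The embryoid body lists are far longer, with 75673 to 93646 peaks.

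The look-up was repeated at matched length. Of the 280 p53KO-only regions among the 695 strongest peaks outside dense windows, 257 and 232 were among the 695 strongest of the WDR5WT lists, 67 and 103 of the S91K-Y191F lists and 142 and 62 of the parental lists. Of the 313 DKO EV-only regions, 4 and 3 were among the strongest peaks of the WDR5WT lists, 195 and 99 of the S91K-Y191F lists and 69 and 186 of the parental lists. Searched in the whole lists, the same regions were found more often in every one of these lists. Of the 280 p53KO-only regions, all were in both WDR5WT lists, in S91K-Y191F replicate 2 and in parental replicate 1, with 217 in S91K-Y191F replicate 1 and 231 in parental replicate 2. Of the 313 DKO EV-only regions, 111 and 115 were in the WDR5WT lists, 301 and 294 in the S91K-Y191F lists and 282 and 300 in the parental lists. At gene starts, 46 of 56 DKO EV-only regions were in each WDR5WT list. The choice of list length thus decides how often these regions appear in WDR5WT cells.

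The 5 highest p53KO-only regions outside dense windows at full length all overlapped annotated genes. In mm10 coordinates, they included chr14:14345209-14349138 at Il3ra, an interleukin 3 receptor chain, which ranked 8 and 8 in the clone C9 lists and 7 and 7 in the clone H9 lists. A region at Slit2 on chromosome 5, which encodes an axon guidance ligand, ranked 15, 10, 17 and 14 in the same lists. One at Nrp1 on chromosome 8, a co-receptor for semaphorins and VEGF, ranked 14, 9, 22 and 17. The others were at the predicted gene LOC108167694 on chromosome 9 and inside Kcnn2, a potassium channel gene on chromosome 18, with no protein-coding start within 100 kb. Among the 1535 strongest peaks per list the highest 5 were those at Il3ra, LOC108167694, Slit2 and Nrp1 and one at the cytokine receptor gene Crlf2. Among the 695 strongest outside dense windows a region at Jun, the AP-1 subunit gene, stood in place of the one at Nrp1.

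The highest DKO EV-only regions overlapped no annotated protein-coding gene. At full length, chr9:3033480-3038380 ranked 11 and 12 in the DKO EV lists and had no protein-coding start within 100 kb. A region on chromosome 14 ranked 16 and 18, and one nearest to Mrgprd, a sensory neuron receptor gene, ranked 23 and 21. The other 2 were nearest to the predicted genes Gm14496 and Gm45871. The strongest region of DKO EV 1 was a shared one. It starts at position 3009161 of chromosome 9 and ranked 1 and 2 in DKO EV, against 9239 to 13091 in p53KO, where it lay at percentiles 57.95 to 66.9 of the lists. Another shared region, on chromosome 17 at a ribosomal RNA pseudogene (Rn18s-rs5), ranked 3 and 3 in DKO EV and 1 in each p53KO list.

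By gene, DKO EV-only regions were most numerous near Gm15319 with 47, Gm21119 with 37 and 4930467E23Rik with 25 on chromosome 8, Atg7 on chromosome 6 with 23, and Gm40469 with 22. Atg7 encodes an enzyme of autophagosome formation. Of the p53KO-only regions, 13 lay near Prl2c3, a prolactin family gene, and 10 near the phospholipase gene Plcb4. Another 10 lay near Spry2, a feedback inhibitor of receptor tyrosine kinase signalling, and 9 each near Cdh5 and Chd9. Outside the dense windows these p53KO-only counts stayed the same, while no gene had more than 3 DKO EV-only regions. The classes held 18281 p53KO-only and 279 DKO EV-only regions there.

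Over 21883 protein-coding genes, 41 (0.187%) had a start peak in both DKO EV lists and no p53KO list, 7830 (35.8%) in all 4 p53KO lists and no DKO EV list, and 205 (0.937%) in all 6. Of the 41 genes, 35 carry only predicted or clone names, and the share of such names over all genes was not counted. Dense windows were not left out of these gene counts. Outside them only 12 DKO EV-only regions lay at a start. The 41 genes had start peaks in parental 1 in 37 cases and in parental 2 in 39, against 9316 and 2819 of all genes. None had one in a WDR5WT list, where 11285 and 12514 of all genes did. None of the 14 gene lists had a DKO EV-only member at full length. For each gene list, a p53KO-only share is to be read against 35.8% for all genes. It also depends on how many members had a start peak in the p53KO lists. Of genes with one in all 4, 88.3% were p53KO-only over all genes. By list this ranged from 69.2% for naive pluripotency to 100% for the formative, lineage and fibroblast lists, which hold 4 to 14 such genes. It was 94.7% for WDR5 complexes, 93.6% for ribosomal proteins and 82.8% for translation factors.

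Naive pluripotency genes, which maintain the ground state kept by 2i+LIF, had start peaks in all 4 p53KO lists for 13 of 20 members, and 9 were p53KO-only. One of these is Nr0b1, a nuclear receptor gene expressed in ESCs, with no DKO EV peak, against percentiles 93.7 and 96.9 in clone C9 and 95.5 and 93.2 in clone H9. The Klf4 start, of a Krüppel-like factor, had no DKO EV peak, against percentiles 68.6, 69.9, 87.3 and 89.8 in p53KO. Zfp42, which encodes the naive marker REX1 and is on chromosome 8, was the only member in all 6 lists. Its start peak was at percentiles 13.03 and 70.2 of the DKO EV lists, against 96.9, 97.5, 94.6 and 95.8 of the p53KO lists. Percentiles refer to the ranking within each list, and lists of such different length show no change in level. Klf2, Klf5 and Fbxo15 had a start peak in DKO EV 2 and not in DKO EV 1.

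Core pluripotency genes were p53KO-only in 7 of 12 cases. Among them were Utf1, a chromatin-bound ESC factor, at percentiles 78.9 to 86.1 of the p53KO lists, and Rif1, a telomere and replication timing factor, at 71.6 to 95.5. Trim28, a corepressor of retroelements, had a peak in DKO EV 2 at percentile 51.8. Formative and primed genes, which mark exit from the naive state, were p53KO-only in 7 of 15 cases, among them Zic2 at percentiles 95.0 to 98.8 of the p53KO lists, Zic5 and Tcf7l1, a repressor of the naive network. No formative gene had a start peak in a DKO EV list, where 1.24% and 5.04% of all genes had one, so a count of 0 of 15 is close to the background.

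Genes of the complexes that hold WDR5 were p53KO-only in 18 of 29 cases (62.1%). They include Kdm6a, the UTX demethylase subunit of MLL complexes, at percentiles 88.7 to 93.5 of the p53KO lists, Myc at 83.3 to 90.9 and Mycn at 77.5 to 87.7. Paxip1, which encodes PTIP, had a peak in DKO EV 2 at percentile 7.91, against 73.2, 77.6, 88.4 and 88.7 in p53KO. Of the core partners, Ash2l and Dpy30 had start peaks in all 4 p53KO lists and Rbbp5 in none.

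Genes of the p53 pathway were p53KO-only in 15 of 30 cases. Apaf1, the scaffold of the apoptosome, was absent from DKO EV, against percentiles 94.4, 95.5, 96.8 and 96.8 in p53KO. Plk2, a polo-like kinase gene, had a peak in DKO EV 2 at percentile 26.4, against 98.1 to 99.0 in p53KO. Gadd45a, a stress and repair gene, had one in DKO EV 2 at percentile 53.1, against 99.0 to 99.2 in p53KO. Both groups lack p53, so these start peaks were called in p53KO cells without it.

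Housekeeping genes were p53KO-only as well. Ribosomal protein genes had start peaks in all 4 p53KO lists for 47 of 81 members, and 44 (54.3%) were p53KO-only. Rps29 was in all 6 lists, at percentiles 40.1 and 63.3 of the DKO EV lists, against 96.4 to 97.1 of the p53KO lists. Rpl15 was in DKO EV 2 at percentile 8.03, against 97.4 to 98.6 in p53KO. Translation factor genes were p53KO-only in 24 of 39 cases (61.5%), with Eif4g2 at percentiles 93.8 to 97.1 of the p53KO lists. Eef1a1, Eif2s1, Eif3f, Tpt1 and Ncl had a peak in DKO EV 2 alone of the DKO EV lists. Genes of replication and transcription were p53KO-only in 20 of 25 cases. As 24 of the 25 had a start peak in all 4 p53KO lists, 83.3% of those 24 lacked one in both DKO EV lists, against 88.3% of the 8869 such genes over all. Mcm4, a helicase subunit gene, was at percentiles 95.1 to 96.3, Pcna, the replication clamp, at 93.7 to 96.2, and Npat, a histone gene activator, at 94.1 to 95.6 of the p53KO lists. Hjurp, the CENP-A chaperone gene, was in all 6 lists, at percentiles 60.4 and 78.7 in DKO EV, against 98.5, 98.2, 99.0 and 98.4 in p53KO.

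Of the lineage genes, in lists of 11 to 20 members, none had a start peak in either DKO EV list, where 1.24% and 5.04% of all genes had one, and 0 in lists this short is close to that background. Neuroectoderm genes were p53KO-only in 14 of 20 cases (70.0%), among them Sox21 and the hedgehog effector Gli3. Eye field genes were p53KO-only in 6 of 13, among them the Wnt receptor gene Fzd5, Mitf and Lhx2. For streak, mesoderm and endoderm genes the count was 4 of 18, for trophectoderm 5 of 11 and for fibroblast genes 5 of 14. Sox17, an endoderm regulator, reached percentiles 98.7 to 99.8 of the p53KO lists, and Vim, an intermediate filament gene, 98.3 to 99.1. A start peak is not expression, and both genes were named by a rule that takes high percentiles. For members with a start peak in all 4 p53KO lists, the median percentile was 72.5 in neuroectoderm and 79.9 in eye field. It was 70.6 for streak, mesoderm and endoderm, 72.4 for trophectoderm and 84.8 for fibroblast genes, against 77.3 over all genes. Wnt and ERK pathway genes were p53KO-only in 8 of 17 cases. Dusp6, an ERK phosphatase gene, was in DKO EV 2 at percentile 27.6, against 95.4 to 99.0 in p53KO.

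**Figure D4:**
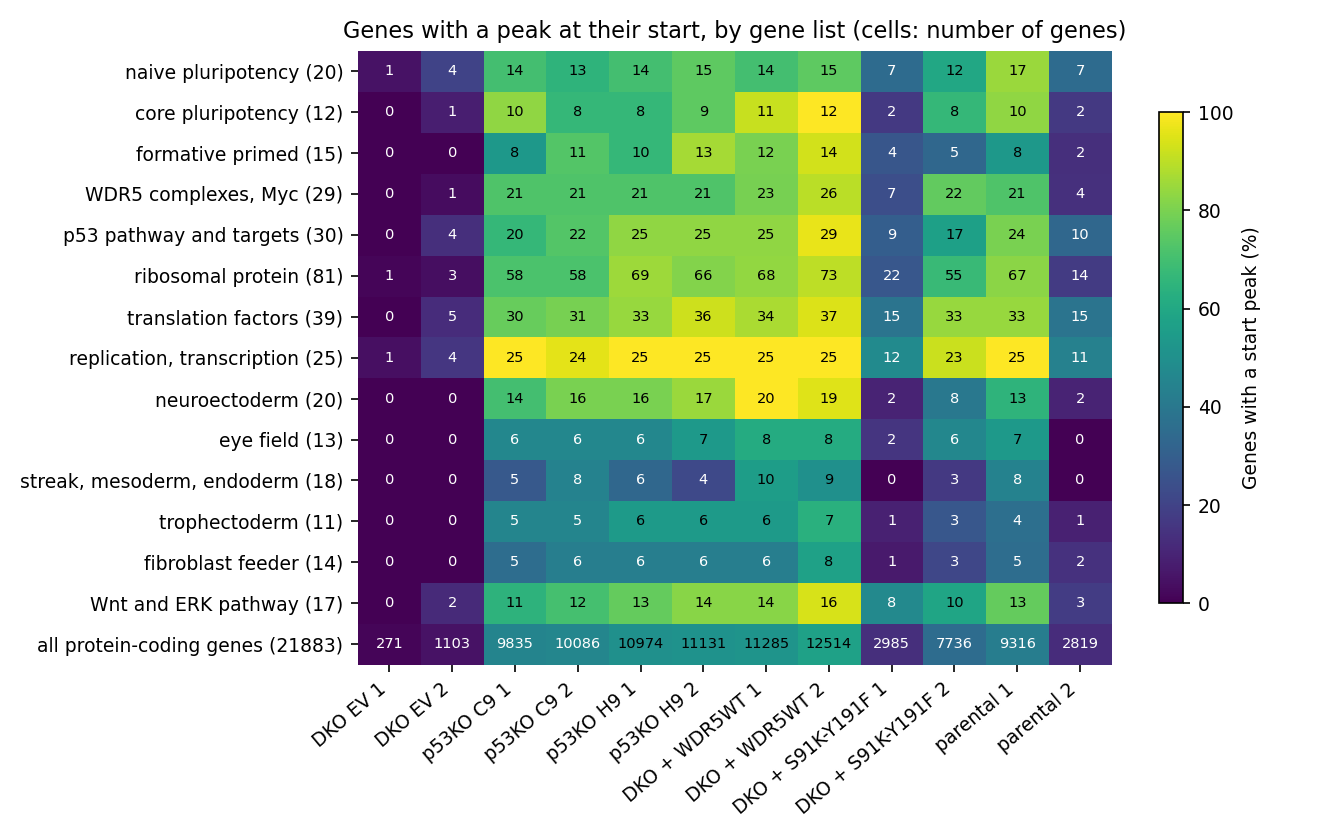
Number of genes per list (cells) and percentage (colour) with a peak within 1000 bp of their start in each ESC list. The DKO EV columns hold 0 or 1 genes per list in replicate 1 and at most 5 in replicate 2, as against 271 and 1103 of all 21883 genes, while p53KO and WDR5WT columns hold most members of the housekeeping and pluripotency lists.

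At equal list length 616 genes (2.81%) were p53KO-only, 73 (0.334%) DKO EV-only and 122 (0.558%) shared. List members among the p53KO-only genes were then Plk2, Apaf1, Rpl15, Sox17, Vim and Dusp6, and no list gave more than 2. Removing the dense windows first left 272 (1.24%) p53KO-only, 62 (0.283%) DKO EV-only and 86 (0.393%) shared genes. At this length Zfp42 and Rps29 counted as DKO EV-only, because their p53KO peaks fell below the 695 strongest.

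**Figure D5:**
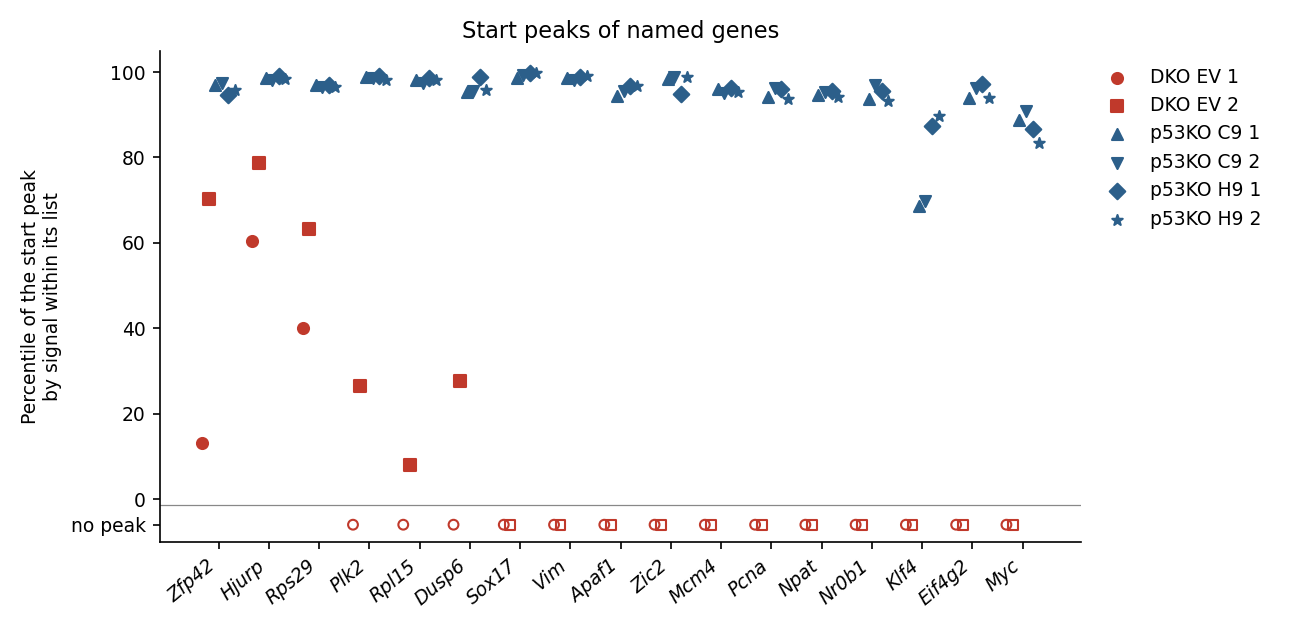
Percentile of the start peak by signal within its own list for named genes, with DKO EV in red and p53KO in blue; open symbols below the line mean that the list had no peak. Zfp42, Hjurp and Rps29 have peaks in all 6 lists, Plk2, Rpl15 and Dusp6 in DKO EV 2 but not DKO EV 1, and the other 11 genes, of these 6 lists, in the p53KO lists alone.

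Genes and regions present in all 6 lists were often on chromosome 8. Of the 205 genes with a start peak in all 6 lists 55 (26.8%) are on chromosome 8, and 25.5% of the shared regions outside dense windows are too, against 9.06% of all merged regions there. Chromosome 8 held 14.96% and 14.63% of the DKO EV peaks outside dense windows, against 9.66% and 9.58% in clone C9 and 8.87% and 8.84% in clone H9 (exact permutation p = 0.0667, the smallest possible). Parental lists had 5.33% and 6.21%. Of the p53KO peaks in the strongest bin, DKO EV 1 found 16.4% to 19.0% on chromosome 8, against 5.41% to 6.92% on the other chromosomes, and DKO EV 2 found 43.1% to 47.8%, against 24.8% to 30.3%. In S91K-Y191F replicate 1 the shares were 72.2% to 76.5% and 54.8% to 63.9%, and in parental replicate 2 they were 50.1% to 55.4% and 56.8% to 65.9%. Copy number was not measured, and its part in these shares was not tested.

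Promoter sequences from RefSeq (GRCm38.p6, 250 bases before to 50 after the start) were matched for 17491 genes and searched on both strands. The letters were CCGGAAG (ETS), GGGCGG (SP/KLF), CCAAT (NFY), GCATGCG (within NRF1), ATGGCGG (within YY1), ATTTGCA (within the POU octamer), CACGTG (E-box) and CGCGAGA (within the CGCG element). GGGCGG was in 46.3% of all promoters and CCAAT in 39.2%. The 173 promoters of genes with a start peak in all 6 lists held them in 78.0% and 59.0% of cases. In the 6431 promoters that were p53KO-only at full length the shares were 66.6% and 41.1%. The median number of CpGs in the window was 23 in the shared class, 21 in the p53KO-only class and 13 over all promoters. It was 3 in the 33 promoters of the DKO EV-only class, and also 3 in the 7598 promoters of genes counted in no list. CCGGAAG was in 11.9% of all promoters, 18.5% of shared and 18.2% of p53KO-only ones, and ATGGCGG in 5.43%, 9.83% and 7.95%. CGCGAGA was in 3.65%, 6.94% and 5.63%, and GCATGCG in 4.49%, 5.20% and 6.84%. CACGTG was in 7.91%, 9.83% and 10.2%, and ATTTGCA in 3.79%, 0.578% and 2.92%. In the 516 promoters that were p53KO-only at equal length, ATGGCGG was in 3.88%, below the share of all promoters, and CGCGAGA in 7.36%. These are counts of letters and were not tested.

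The following 4 promoters show both ends of the comparison: Zfp42 and Hjurp, whose windows lie under a peak in all 6 lists, and Apaf1 and Vim, whose windows lie under a peak in the 4 p53KO lists only. Capitals mark the letters found, on either strand. The windows are chr8:43306960-43307259 (minus strand) for Zfp42, chr1:88277530-88277829 (minus) for Hjurp, chr10:91082694-91082993 (minus) for Apaf1 and chr2:13574061-13574360 (plus) for Vim, each read 5′ to 3′ along the gene.
Zfp42: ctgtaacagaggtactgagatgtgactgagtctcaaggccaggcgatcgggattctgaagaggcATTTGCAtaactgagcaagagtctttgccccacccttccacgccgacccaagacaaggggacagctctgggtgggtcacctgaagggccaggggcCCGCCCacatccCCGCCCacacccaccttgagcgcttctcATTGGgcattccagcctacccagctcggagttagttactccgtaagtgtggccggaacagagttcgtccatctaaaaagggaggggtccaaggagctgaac
Hjurp: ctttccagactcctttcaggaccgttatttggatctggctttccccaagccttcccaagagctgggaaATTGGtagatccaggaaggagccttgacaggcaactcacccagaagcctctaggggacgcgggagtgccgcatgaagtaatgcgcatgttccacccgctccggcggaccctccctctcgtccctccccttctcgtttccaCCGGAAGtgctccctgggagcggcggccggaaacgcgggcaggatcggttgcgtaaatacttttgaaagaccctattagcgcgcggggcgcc
Apaf1: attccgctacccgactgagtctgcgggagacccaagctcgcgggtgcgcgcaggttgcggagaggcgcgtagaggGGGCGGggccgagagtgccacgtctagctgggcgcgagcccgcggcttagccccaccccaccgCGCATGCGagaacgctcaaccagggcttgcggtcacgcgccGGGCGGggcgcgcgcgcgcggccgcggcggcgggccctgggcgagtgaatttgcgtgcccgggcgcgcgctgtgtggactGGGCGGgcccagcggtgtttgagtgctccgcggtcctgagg
Vim: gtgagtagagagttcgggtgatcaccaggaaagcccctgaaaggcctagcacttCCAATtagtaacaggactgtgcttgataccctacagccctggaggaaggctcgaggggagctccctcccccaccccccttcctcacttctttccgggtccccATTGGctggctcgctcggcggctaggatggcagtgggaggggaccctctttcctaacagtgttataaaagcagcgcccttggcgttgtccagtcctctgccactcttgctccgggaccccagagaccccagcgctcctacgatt
Zfp42 holds 2 GGGCGG, 1 CCAAT and 1 ATTTGCA match, the last the octamer letters bound by OCT4 family factors, and Hjurp 1 CCGGAAG and 1 CCAAT match. Apaf1 holds 3 GGGCGG and 2 overlapping GCATGCG matches with 46 CpGs. Vim holds 2 CCAAT matches with 11 CpGs. CCAAT and GGGCGG each occur in both pairs.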

How the data were processed

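ATAC-seq peak lists of 12 ESC libraries were read as the authors deposited them, 6 of them for the comparison. Per the submitters' processing notes the build was mm10, and the tools named, without their roles, were DESeq2, MACS2 2.1.2, Genrich 0.6, Bowtie2 2.3.5 and SAMtools. The caller of the ESC lists is not given in the sources used here. Each deposited ESC list gives a peak's signal, of unstated scaling and never under 200, and its −log10 p against that library's background. Both are the authors' values and served here solely for ranking within each list. There are no read counts, so no depth, interval or count test can be given, and a longer list may come from deeper sequencing.

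Peaks were assigned to starts of 21883 protein-coding genes of RefSeq (GRCm38.p6): the start site where the promoter table gives strand (17491 genes), otherwise either end of the gene. Two-sided exact permutation tests over lists compared list values (15 arrangements). Region and gene counts have no test and stand beside the share over all regions or genes. The 14 gene lists hold 335 distinct genes; named genes were Wdr5 and Trp53, up to 3 per list and direction by mean percentile, the 5 strongest regions per direction outside dense windows, and the 5 genes with the most regions; some genes the rule names are not reported here. Members, lists and rules were chosen with earlier results of these data known. The scripts were tested on simulated lists. Python 3.11.15, NumPy 2.4.6 and pandas 2.3.3 were used.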

Additional observations from a re-analysis of the deposited data

Results flagged for a closer look

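One p53KO list, clone C9 replicate 1, lay apart from the other p53KO lists in peak number: its log10 peak number was 4.42, against 4.49 to 4.50 in the other 3, with a gap that is large for a group of 4. Chance alone sets about 1 in 20 such groups apart for a single measure. Several list measures were screened in this way, so a flag by chance is likelier than that. The DKO EV lists, at 3.19 and 3.40, remain far below it.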

How the results depend on the processing

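The difference in log10 peak number was negative under all its alternatives, from -1.29 to -1.08 when 1 list was left out and at -1.44 without dense windows. With replicate number as a block it was again -1.18 (exact permutation p = 0.111, the smallest the block allows). The block changed no other call (exact permutation p = 0.444 for the share at starts and 0.778 for median width); the labels do not say what a replicate number marks. The share of peaks at starts, a difference of -6.85 percentage points over whole lists, turned to 6.67 without dense windows, ranged from -17.6 to 3.86 with 1 list left out (positive without DKO EV replicate 1), and was -44.3 at equal length outside dense windows. Median width, a difference of -6.38 bp, ranged from -32.4 to 19.6 bp with 1 list left out (positive without DKO EV replicate 2) and was 2 bp against clone C9 alone. At full length the DKO EV-only count of 810 fell to 483 among the 50% of peaks per list with the highest deposited −log10 p and to 278 without dense windows, and ranged from 811 to 1105 with 1 list left out. The p53KO-only count of 18301 was 9114 among those 50%, 674 at equal length, and 18327 to 20850 with 1 list left out. At equal length the DKO EV-only count of 838 was 356 among the 500 strongest peaks, 313 without dense windows, and 838 to 1325 with 1 list left out, the highest being without DKO EV replicate 2. The p53KO-only count of 674 became 275 and 280 in the same settings and 688 to 882 with 1 list left out. Ranking by −log10 p, added after the data were seen, gave 791 and 625. All other settings moved the counts by less than 1.5 times. With dense windows removed before merging, 278 DKO EV-only regions remained, against 279 when regions were sorted after merging. The absent depth limits every count.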

Other observations

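Among the 205 genes with a start peak in all 6 lists, Pgk1, a glycolytic kinase gene picked after its values were seen, held a different place in the 2 groups. Its peak ranked 3 of these genes in both DKO EV lists, against 173, 157, 184 and 190 in the p53KO lists. Such a shift was not particular to Pgk1. LOC100504180 ranked 2 and 1 in DKO EV, against 202 to 204 in p53KO, and Sfi1 ranked 4 and 4, against 203 to 205. Pdcd10 ranked high in both groups, at 7 and 5 in DKO EV and 2 to 3 in p53KO. The Pgk1 percentiles were alike in the 2 groups, 89.6 and 94.7 in DKO EV and 89.0 to 94.6 in p53KO. In the other plasmid-carrying lists they were 99.5 and 99.3 (WDR5WT) and 98.2 and 99.6 (S91K-Y191F), and in parental lists 81.4 and 91.2. The sequence of the plasmid was not used here, and its part in this peak was not tested.

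Sp4, a zinc finger factor gene, ranked 50 and 14 of the same genes in the DKO EV lists and 1 in every p53KO list. The start peak of Cdk4, the G1 kinase gene, was at percentiles 14.3 and 28.9 in DKO EV and 71.3 to 85.9 in p53KO. By rank among the same genes, Cdk4 was below the middle in every DKO EV and every p53KO list. Percentiles from lists of such different length show no change in level. Sp110 and Gm4981, of the 41 DKO EV-only start genes, had a start peak in no parental or S91K-Y191F list.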
